A study of Homo sapiens with 5 samples.

Results

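The HSP70 and HSP110 genes described here are HSPA1A, HSPA1B, HSPA1L, HSPA2, HSPA4, HSPA8, HSPA9, HSPA13, HSPA14 and HSPH1, 10 of the 20033 protein-coding genes on the main chromosomes of GENCODE release 44 (GRCh38). For each gene, every deposited peak that touched the stretch from 5 kb upstream of its 5′ end to its 3′ end was taken. The peaks come from CUT&RUN, which maps where a protein sits on DNA by cutting out and sequencing the fragments to which an antibody has tied a nuclease. The cells were OVCAR8, an established line from a high-grade serous ovarian tumor, growing in serum-containing medium without any treatment and briefly fixed with formaldehyde on the plate. The study chose this line because MYC and HSF1 are both amplified in it, and asked whether both factors occupy the same genes. There were 2 HSF1 libraries, 2 MYC libraries and 1 IgG library, and all 4 antibody lists were called against 1 IgG library. No library came from heat-shocked or HSF1- or MYC-depleted cells, and the labels do not say whether replicates were separate cultures.

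HSP70 proteins bind exposed hydrophobic stretches of unfolded proteins in a cycle of ATP binding and hydrolysis. J-domain proteins deliver the substrate and stimulate hydrolysis, and nucleotide exchange factors, among them the HSP110 proteins, then release ADP so that the substrate leaves. HSF1 is the transcription factor that activates heat shock genes through heat shock elements, runs of the unit GAA and its complement TTC in alternation, while MYC pairs with MAX on E-boxes, best on CACGTG.

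HSF1 peaks were called in both replicates at 7 of the 10 genes: HSPA8, HSPA1A, HSPA1B, HSPA1L, HSPA9, HSPH1 and HSPA4. Over all protein-coding genes the same criterion was met by 1564 of 20033, or 7.81%. MYC peaks were called in both replicates at all 10 genes, against 9103 of 20033 protein-coding genes, or 45.4%. At the 7 genes with HSF1 peaks, an interval called in both HSF1 lists shared at least 1 bp with one called in both MYC lists, which held for 729 or 3.64% of protein-coding genes. The windows of the 10 genes were shorter than those of protein-coding genes at large, with a median of 16319.5 bp against 32471 bp. Within 1 kb of the MANE Select start, the transcript start chosen jointly by GENCODE and RefSeq, the counts for the family stayed at 7, 10 and 7 genes, while the shares over all protein-coding genes fell to 2.59% for HSF1, 36.6% for MYC and 2.04% for overlapping peaks. With 2 lists against 2, an exact permutation test cannot give a p below 0.333, so no test between the factors was made and the counts are descriptions.

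Peak height is given as the fold enrichment that the authors deposited, the pileup of fragments at the summit over the local IgG background with 1 added to each. The number of fragments after filtering ranged from 8265647 to 10084407 over the 4 antibody libraries, with 9306942 in the IgG library. The HSF1 lists held 6477 and 4492 peaks with median folds of 4.997 and 5.201, at a p threshold of 1e-04. The MYC lists held 25646 and 13290 peaks with medians of 12.2 and 10.5, at a threshold of 1e-10. Because thresholds and antibodies differ, a gene's HSF1 and MYC folds are not set against each other, and a gene without a peak is one that was not called at that depth and threshold.

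**Figure D1:**
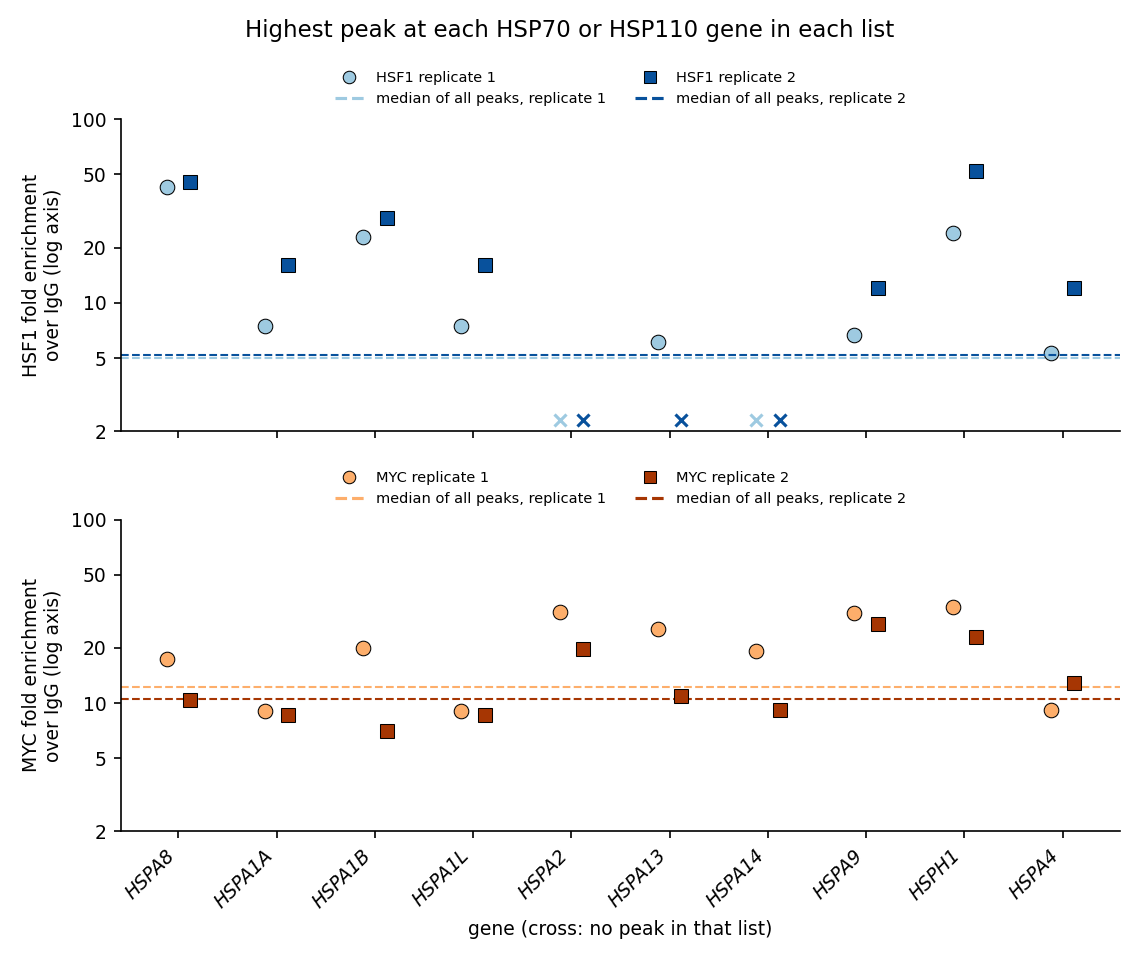
Fold enrichment over IgG (log axis) of the highest peak at each gene, HSF1 above and MYC below, with circles for replicate 1, squares for replicate 2, dashed lines for the median of all peaks of a list and crosses for a gene with no peak in a list. HSPA8 and HSPH1 stood highest for HSF1, at 42.7 and 45.5 and at 23.9 and 52.4, and HSPA9, HSPH1 and HSPA2 stood highest for MYC, with all 6 values at or above 19.6.

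HSPA8 encodes HSC70, the constitutively expressed cytosolic HSP70 that serves housekeeping folding and clathrin uncoating. It carried the highest mean HSF1 peak of the family, with folds of 42.7 in replicate 1 and 45.5 in replicate 2 (44.1 ± 1.94, SD, n = 2). Both values stood above more than 99% of their lists, at 99.8% and 99.6%, and the mean ranked 12 among the 2141 intervals called in both HSF1 lists. The HSF1 replicates were closer to each other here than at any other family member. The peak covered chr11:123061561-123063388 on GRCh38 over both replicates, with summits at positions −142 and −180 from the MANE Select start on the minus strand. The start of the unnamed gene ENSG00000288061 lies in the same peak. HSPA8 was also the single member with an exact heat shock element, 3 alternating units separated by 2 free bases on either strand, within 100 bp of the strongest HSF1 summit. Among all 2141 reproducible HSF1 peaks, 214 or 10.0% had one. The search used the letters GAANNTTCNNGAA and its complement TTCNNGAANNTTC. A second exact element lay closer to the start, and both are shown with 8 flanking bases on each side, in the direction of transcription and with the element in capitals.
HSPA8 element at −230, chr11:123062354-123062366, minus strand, in an exon of another HSPA8 transcript: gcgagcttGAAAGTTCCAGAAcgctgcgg
HSPA8 element at −55, chr11:123062179-123062191, minus strand, in the UTR of another HSPA8 transcript: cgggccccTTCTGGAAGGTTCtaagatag
The first element was centred 44 bp from the strongest HSF1 summit and the second 131 bp from it. MYC peaks lay on the same stretch, with folds of 17.4 and 10.4, higher than 79.0% of the replicate 1 list and 48.7% of the replicate 2 list. The strongest MYC summit, from replicate 1, was 9 bp from the strongest HSF1 summit, from replicate 2. In replicate 2 the MYC summit stood at −270. Smaller peaks within the gene body appeared only in the replicate 2 lists, with folds of 4.95 for HSF1 and 7.37 and 7.59 for MYC.

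HSPA1A and HSPA1B encode the same stress-inducible cytosolic HSP70 from neighbouring genes on chromosome 6, and HSPA1L, a close relative best known from testis, is transcribed from the other side of the HSPA1A promoter. The HSF1 folds at HSPA1A were 7.46 and 16.01 (11.7 ± 6.04, SD, n = 2), with summits at −108 and −88. At the HSPA1B promoter they were 22.7 and 28.6, with summits at −144 and −258. The HSPA1B folds lay above both HSPA1A folds, whereas the pileups overlapped, since both HSPA1B pileups fell between the 91 and 165 fragments of HSPA1A. The peak at HSPA1A, chr6:31814323-31815868 over both replicates, also contains the start of HSPA1L and accounts for every HSF1 call at HSPA1L except a weak one of replicate 2 with a fold of 4.87. HSPA1A and HSPA1L therefore share their values and are 1 observation, so the 7 genes with HSF1 peaks stand for 6 promoters. The peak at HSPA1B holds the start of the unnamed gene ENSG00000289829.

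The 150 bases upstream of the HSPA1A and HSPA1B starts are shown because the peaks summit on or beside them and because they are nearly the same, with 141 of 151 aligned columns identical (93.4%). Capitals mark a heat shock element with 1 mismatch in its 9 fixed letters.
HSPA1A, chr6:31815393-31815542, plus strand: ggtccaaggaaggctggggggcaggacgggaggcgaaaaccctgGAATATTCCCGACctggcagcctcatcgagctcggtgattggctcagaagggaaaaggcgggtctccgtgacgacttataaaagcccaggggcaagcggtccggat
HSPA1B, chr6:31827588-31827737, plus strand: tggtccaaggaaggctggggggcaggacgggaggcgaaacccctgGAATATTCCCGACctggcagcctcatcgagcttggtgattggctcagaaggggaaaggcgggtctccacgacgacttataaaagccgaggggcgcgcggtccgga
The element is the same in both genes, begins at −106 in HSPA1A and −105 in HSPA1B, and was centred 12 bp and 159 bp from the strongest HSF1 summit of the respective peak. At HSPA1B that summit was the one of replicate 2 at −258, and the replicate 1 summit at −144 lay nearer to the element. Neither peak held an exact element.

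Between both genes lay another site, chr6:31821062-31823042, with HSF1 folds of 20.6 and 28.9 and summits at −5459 and −5431 from the HSPA1B start. Replicate 2 gave its highest HSF1 fold on HSPA1B at this site rather than at the promoter. The replicate 1 peak ended just outside the window, so that only the replicate 2 peak counts among the HSPA1B calls. The start of the unnamed gene ENSG00000289637 falls in it, and MYC peaks overlapped it with folds of 11.9 in replicate 1 and 13.3 and 10.1 in replicate 2. Heat shock elements with 1 mismatch occurred there in 4 overlapping or neighbouring places, the nearest centred 25 bp from the strongest summit.

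MYC peaks were called on the cluster as well. At HSPA1A the MYC folds were 9.01 at −108 in replicate 1, and in replicate 2 the list held one peak with a fold of 8.56 at −987 and another with a fold of 4.64 at −163. Only 22.7% of the replicate 1 list and 26.2% of the replicate 2 list were lower than the highest of these, and 0.278% were lower than the promoter peak of replicate 2. At the HSPA1B promoter the MYC folds were 20.03 and 6.99, above 86.2% and 9.57% of their lists, and HSPA1B had the lowest ratio of replicate 2 to replicate 1 for MYC in the family. A MYC peak near the 3′ end of HSPA1B was called in both replicates, with folds of 9.13 and 7.03 at positions 2186 and 2269, and an HSF1 peak of fold 4.85 at 2038 was called in replicate 2.

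**Figure D2:**
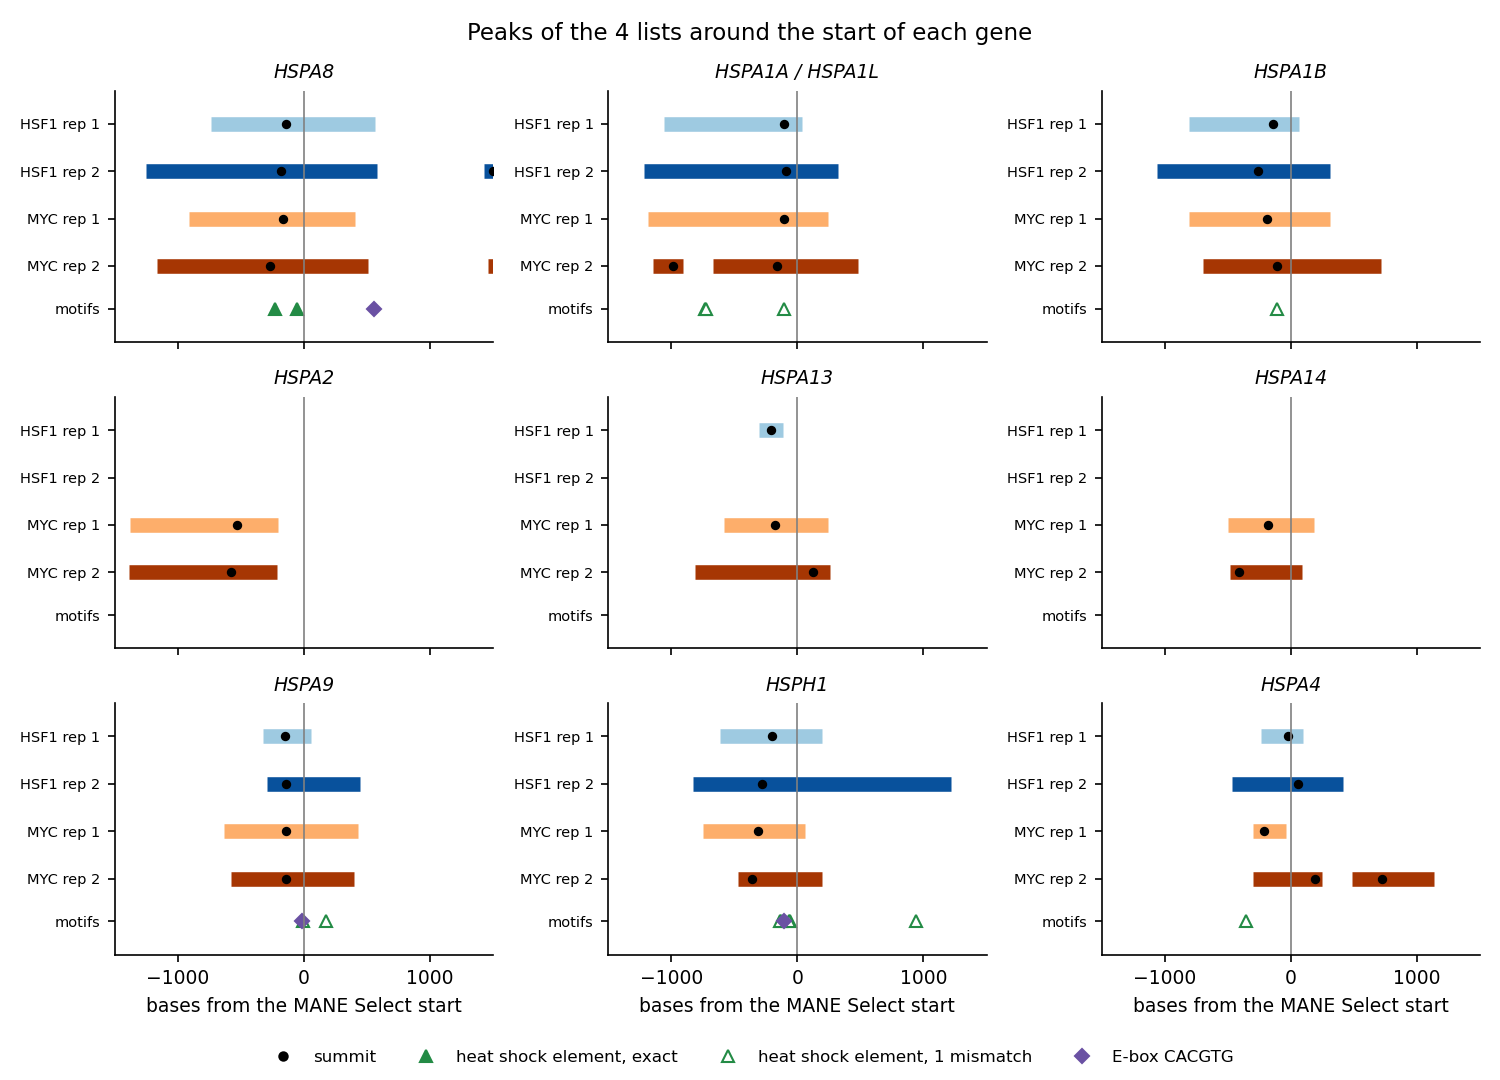
Peaks of the 4 lists (bars) and their summits (black dots) from 1500 bases before to 1500 bases after the MANE Select start of each gene, in the direction of transcription, with exact heat shock elements as filled triangles, those with 1 mismatch as open triangles and CACGTG as diamonds. HSPA1L shares the HSPA1A panel. HSF1 and MYC summits lay close together before the start at HSPA8, HSPA1A, HSPA9 and HSPH1, and no HSF1 bar is drawn for HSPA2 and HSPA14.

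The fold at the chromosome 6 genes rests on a high background. Dividing the pileup plus 1 by the fold returns the background plus 1 that the fold was computed with, which was 12.3 and 10.4 for the HSF1 peaks of HSPA1A. The 95th percentile over all peaks was 5.32 in the HSF1 replicate 1 list and 4.46 in replicate 2. At the HSPA1B promoter it was 5.86 and 4.94, also above both percentiles, and at HSPH1 it was 2.21 and 2.003, near the list medians of 2.08 and 1.94. The part of this background in the folds of HSPA1A and HSPA1B was not tested. The HSF1 pileups at HSPA1A were higher than those of 98.4% and 99.4% of the peaks, whereas its folds exceeded 84.7% and 95.04%. The same held for MYC, where the pileups at HSPA1A and HSPA1B in replicate 1 were 100 and 108, above 99.0% and 99.3% of the list. In MYC replicate 2 the promoter pileup was 59 at each gene, above 94.3% of the list, whereas the folds there exceeded 0.278% and 9.57%. By pileup in place of fold, HSPA1A moved from 9 to 3 and HSPA1B from 7 to 2 in the order of the family for MYC, and HSPH1 moved from 2 to 5 for HSF1. For MYC, HSPH1 also moved from 2 to 5, HSPA2 from 3 to 6, HSPA13 from 4 to 8 and HSPA14 from 5 to 9. Only HSPA9 kept its MYC place, at 1.

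**Figure D3:**
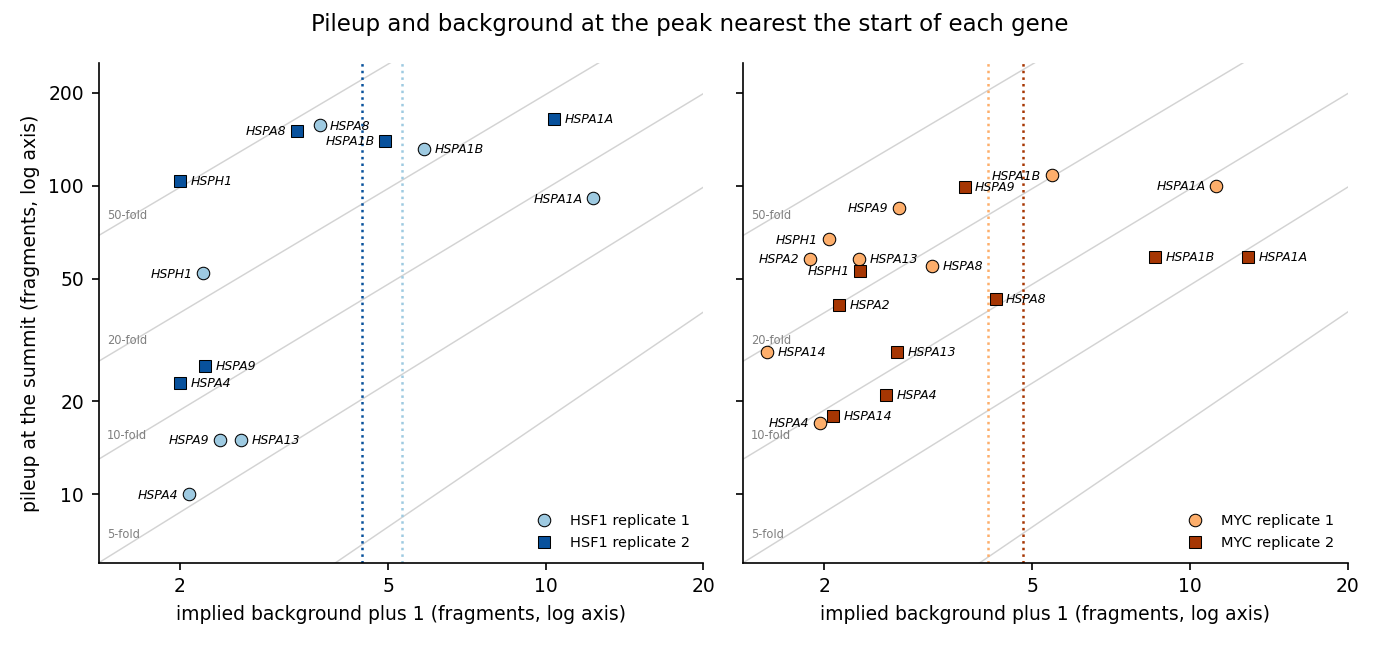
Pileup at the summit against the implied background plus 1 (both in fragments, log axes) for the peak nearest the MANE Select start of each gene, with grey lines of equal fold enrichment and dotted lines at the 95th percentile of the background in each list. HSPA1A and HSPA1B lie to the right of the dotted line of their list in all 4 lists, and the other genes lie to the left.

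Because HSPA1A and HSPA1B are nearly identical, the share of their sequence that occurs more than once in the genome was counted in words of 50 bases on both strands. In the genes themselves, 74.99% of the words of HSPA1A and 71.6% of those of HSPA1B recurred, all of them in the other gene. From 300 to 1799 bases after either start, 100% of the words recurred. In the 500 bases before the start, 0 of 451 words recurred at either gene, and none did within 100 bp of the strongest HSF1 and MYC summits. Over the whole HSF1 peaks, 7.55% recurred at HSPA1A and 4.16% at the HSPA1B promoter, and over the MYC peaks 16.7% and 31.3%. None of the 4 lists had a summit in the stretch where 100% of the words recurred. The length of the reads and the treatment of reads with several matches are not given in the sources used here, so the heights remain uncertain. With 36-base words, 6.02% of the words before the start recurred at HSPA1A, HSPA1B and HSPA1L. Within 100 bp of the strongest summits, 8.48% of the 36-base words recurred at HSPA1A for both factors. At the HSPA1B promoter, 8.48% did so for HSF1 and 15.8% for MYC. For the 7 members on other chromosomes, none of the 50-base words before the start recurred, nor did any in their peaks except 6.95% at the MYC peak of HSPA2.

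**Figure D4:**
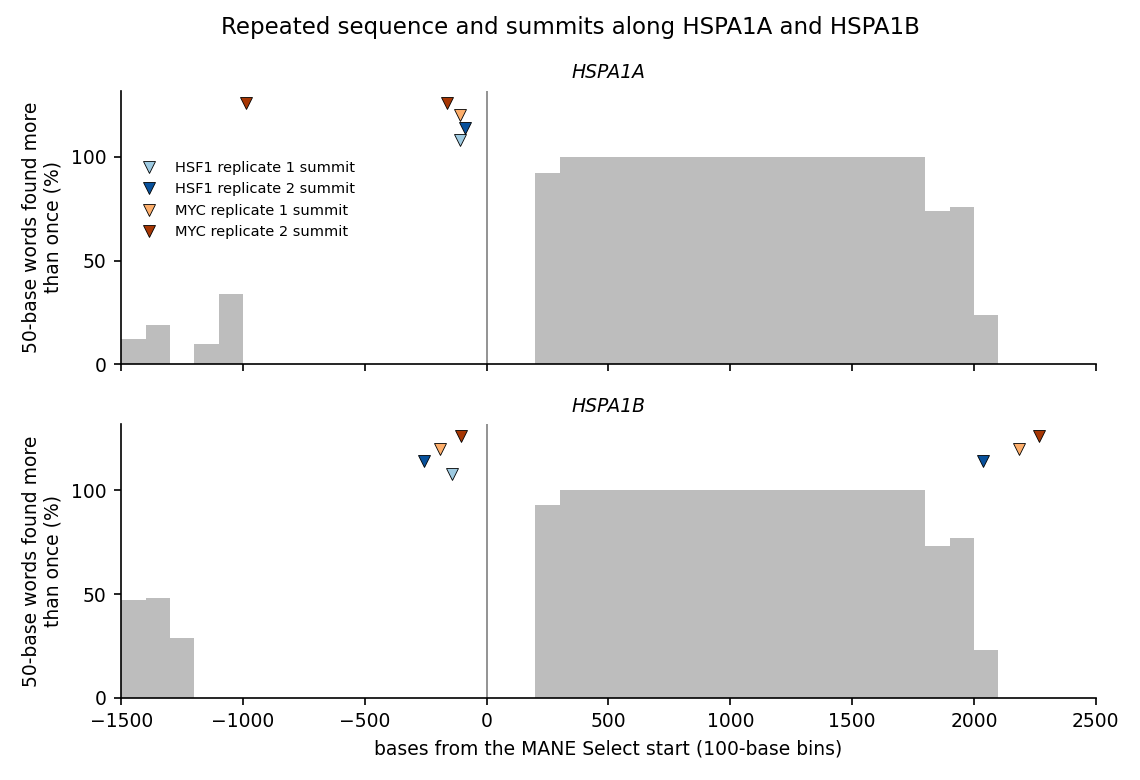
Percent of 50-base words that occur more than once in the genome, in bins of 100 bases along the MANE Select start and body of HSPA1A and HSPA1B, with the summits of the 4 lists as triangles above. The summits lie before the start or beyond position 2000, away from the bins at 100%.

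HSPH1 and HSPA4 belong to the HSP110 family, whose members act as nucleotide exchange factors for HSP70. HSPH1, also called HSP105, had HSF1 folds of 23.9 and 52.4 (38.2 ± 20.1, SD, n = 2), with summits at −200 and −280. Replicate 2 gave the highest HSF1 value among the 10 genes here, and the mean ranked 21 of 2141. The replicate values of HSPH1 enclose those of HSPA8, so the order of these genes does not hold beyond the spread. The HSPH1 peak, chr13:31160689-31162730, lies across the MANE Select start and extends over an upstream start of the same gene. MYC folds were 33.3 and 23.01 in the same place, above 98.1% and 96.1% of their lists, with summits at −309 and −362. The strongest summits of the factors, HSF1 replicate 2 and MYC replicate 1, were 29 bp apart. The HSF1 peak held 1 exact heat shock element and 1 CACGTG, neither within 100 bp of the strongest summits. They are shown with the MYC motif of HSPA9 for comparison, in the direction of transcription and with the motif in capitals.
HSPH1 heat shock element at −59, chr13:31161951-31161963, minus strand, in an intron of another HSPH1 transcript: gccgcagaTTCTGGAAAGTTCtgatcagt
HSPH1 E-box at −104, chr13:31162003-31162008, minus strand, in a coding exon of another HSPH1 transcript: ggaagtggCACGTGgaggggcc
HSPA9 E-box at −19, chr5:138575415-138575420, minus strand, in the UTR of another HSPA9 transcript: cctcacccCACGTGgttggagg
HSPA4, also called APG-2, had the lowest HSF1 folds of the genes called in both lists, 5.29 and 11.98 (8.64 ± 4.73, SD, n = 2), with summits at −19 and 60. Its replicate 1 peak had a pileup of 10 fragments and a −log10 p of 7.67. MYC folds near the start were 9.18 and 8.38, and replicate 2 had a second peak of fold 12.8 at position 723. The strongest HSF1 and MYC summits were 273 bp apart, farther than in 76.7% of the 916 reproducible HSF1 peaks that met a MYC peak. These summits come from different replicates, HSF1 replicate 2 at 60 and MYC replicate 1 at −213. The MYC summit of replicate 2 near the start stood at 196. The HSPA4 peaks include the start of ENSG00000286408, and the second MYC peak that of ENSG00000279691.

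HSPA9 encodes mortalin, the HSP70 of the mitochondrial matrix, which pulls imported proteins through the inner membrane and folds them. Its MYC folds of 31.0 and 27.0 (29.0 ± 2.84, SD, n = 2) gave the highest MYC mean of the family, above 97.4% and 98.2% of the lists and ranked 330 of 11756 reproducible MYC intervals. Its HSF1 folds were 6.70 and 12.1 (9.39 ± 3.80, SD, n = 2). Summits of all 4 lists fell within positions −153 and −141, and the strongest HSF1 and MYC summits were 1 bp apart, closer than in all but 1.09% of the overlapping pairs. CACGTG stood at −19, 128.5 bp from the strongest HSF1 summit.

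HSPA2, HSPA13 and HSPA14 had MYC peaks in both replicates and no HSF1 peak in both. HSPA2, best known for its part in sperm formation, had MYC folds of 31.4 and 19.6 at −531 and −583, in a peak that holds the start of its antisense gene HSPA2-AS1 and ends before its own MANE Select start. That peak lies over 4 kb inside the HSPA2 gene as GENCODE draws it, with summits at 4305 and 4253 from the gene's 5′ end. HSPA13, a short HSP70 relative found with microsomes, had MYC folds of 25.3 and 10.9, and 1 HSF1 peak of fold 6.11 at −210 in replicate 1. HSPA14, an HSP70-like protein that works at the ribosome, had MYC folds of 19.2 and 9.12 at −178 and −412. The HSPA14 peak also covers the starts of CDNF and MSANTD7, so it cannot be assigned to one of the genes. In the HSF1 lists neither HSPA2 nor HSPA14 had a peak of any height.

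By replicate range, the HSF1 folds of HSPA8 lay above those of HSPA1B, and those of HSPA1B above those of HSPA1A, while HSPA1A, HSPA9 and HSPA4 overlapped one another and HSPH1 overlapped both HSPA8 and HSPA1B. For MYC, the values of HSPA9 (lowest 27.0) lay above those of HSPA13 (highest 25.3) and of the 6 genes below it, and every pair of neighbours in the order of highest peaks overlapped except HSPA4 and HSPA1A at the bottom. That exception rests on the second replicate 2 peak of HSPA4, since in the interval called in both lists its folds of 9.18 and 8.38 overlapped the 9.01 and 8.56 of HSPA1A. Within the intervals called in both lists, replicate 2 was higher than replicate 1 for HSF1 at all 7 genes, by a ratio of 1.064 at HSPA8 to 2.26 at HSPA4. Over all 2141 reproducible HSF1 peaks the median ratio was 1.07 with quartiles of 0.820 and 1.43, and 57.5% exceeded 1. For MYC, replicate 2 was lower in such an interval at all 10 genes, with ratios of 0.349 at HSPA1B to 0.950 at HSPA1A. The ratio at HSPA1A sets the replicate 2 peak at −987 against the replicate 1 peak at −108, since merging joined these peaks. Nearer the start, the replicate 2 peak at −163 had a fold of 4.64, against 9.01 in replicate 1 at −108. The median over the 11756 reproducible MYC intervals was 0.719, and 17.9% exceeded 1. Between the highest peaks of each list the ratio at HSPA4 was 1.39, which compares the peak at 723 in replicate 2 with the one at −213 in replicate 1.

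Calls near the start were found for every gene, beside calls elsewhere such as the site between HSPA1A and HSPA1B and the MYC peak near the 3′ end of HSPA1B. All 7 genes with a reproducible HSF1 interval had one within 1 kb of the MANE Select start, as did 495 of 1285 protein-coding genes with such an interval (38.5%). All 10 did so for MYC, against 7263 of 8932 (81.3%). The number 1285 is lower than the 1564 above because here the peaks of both replicates had to overlap each other. The strongest summits of both factors were 1 to 68 bp apart at HSPA9, HSPA8, HSPA1A, HSPH1 and the HSPA1B promoter, where the median over all 916 overlapping peaks was 88.5 bp. They were 273 bp apart at HSPA4 and 621 bp apart at the site between HSPA1A and HSPA1B, farther than in 93.2% of the pairs. The 621 bp runs to the highest MYC summit there, at −6052 from the HSPA1B start in replicate 2. Other MYC summits of that site, at −5475 in replicate 1 and −5426 in replicate 2, lay beside the HSF1 summits at −5459 and −5431. The 273 bp at HSPA4 sets HSF1 replicate 2 against MYC replicate 1.

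Motif matches were also counted around all gene starts. From 500 bases before to 100 bases after the start, an exact heat shock element occurred in HSPA8 and HSPH1, 2 of the 10 genes, and in 160 or 0.799% of all protein-coding genes. With 1 mismatch, HSPA8, HSPH1, HSPA1A, HSPA1B, HSPA1L, HSPA9 and HSPA4 had one, 7 of the 10 genes, against 2168 or 10.8% of protein-coding genes. These 7 are the genes with HSF1 peaks in both replicates, with HSPA1A and HSPA1L reading the same bases. CACGTG occurred in that stretch at HSPA9 and HSPH1, against 2714 or 13.5% of protein-coding genes. Within 100 bp of the strongest MYC summit it occurred at 0 of the 10 genes and in 970 of 11756 reproducible MYC peaks, or 8.25%. A match describes the letters in the window and not that a factor was bound there.

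Of the other HSP70 and HSP110 genes, HSPA4L, HSPA5, HSPA6, HSPA7, HSPA12A, HSPA12B and HYOU1, HSF1 peaks were called in both replicates at 2 of 7, against 7.81% of protein-coding genes. HSPA4L, another HSP110 relative, had HSF1 folds of 18.4 and 55.6 and overlapping MYC folds of 24.5 and 21.9. HSPA6, a strictly stress-inducible HSP70, had HSF1 folds of 4.96 and 15.8 and no MYC peak in either list. MYC peaks were called in both replicates at 4 of the 7, HSPA4L, HSPA5, HSPA12A and HYOU1, against 45.4% of protein-coding genes. The HSPA12A call had summits at −107065 and −107018 from the MANE Select start, in a window of 184060 bp, and its replicate peaks hold the start of ENO4. HSPA5, the HSP70 of the endoplasmic reticulum known as BiP, had no HSF1 peak and MYC folds of 9.45 and 5.75. HYOU1, its large relative in the same compartment, had no HSF1 peak either and MYC folds of 22.6 and 12.4. HSPA7 is a pseudogene and had no peak. Exact heat shock elements in the peaks of HSPA6 and HSPA4L are shown with 8 flanking bases in the direction of transcription, since they have the form seen at HSPA8 and HSPH1. The HSPA4L element lies in a second HSF1 peak with folds of 4.87 and 9.43, and the higher HSPA4L peak held no exact element.
HSPA6 element at −74, chr1:161524466-161524478, plus strand, upstream of HSPA6: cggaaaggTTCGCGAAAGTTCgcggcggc
HSPA4L element at 1549, chr4:127783871-127783883, plus strand, in an intron of HSPA4L: ctttccaaGAAGATTCTAGAAggttttat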

How the data were processed

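The members and gene lists were chosen with earlier results of these data known. The authors sequenced CUT&RUN libraries of untreated OVCAR8 cells, made FASTQ files with bcl2fastq 2.20.0 per the submitters' processing notes, aligned reads to GRCh38 with Bowtie2 and called peaks for each library separately with MACS 2.2.9.1 per the file headers. The deposited lists give, per peak, a pileup signal in fragments, a fold enrichment (a ratio over the IgG background), and a p and a q each as −log10. The deposited −log10 q column was not used. The headers name the IgG library with a replicate number that the labels do not give, so its match to the labelled IgG library could not be checked. The IgG library was used only through the calls. Depth comes from the headers.

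Peaks were read with pandas 2.3.3 in Python 3.11.15, and sequences with pysam 0.24.0 and samtools 1.23.1. Peaks of 2 lists that shared at least 1 bp were merged, keeping the summit of highest fold. Stretches were aligned globally with Biopython 1.88, words counted with numpy 2.4.6 over chromosomes 1 to 22, X and Y, and figures drawn with matplotlib 3.10.9. Interval, motif and word counting was tested on simulated data. All members are named, with every gene whose 5′ end lies in a member's peak and, of 2 related lists, those with HSF1 peaks in both replicates. Other genes of the related lists, and genes whose starts lie in peaks of these lists, were named after their values were seen. The p-values of the lists measure fragments in 1 library, not the spread between replicates.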

Additional observations from a re-analysis of the deposited data

How the results depend on the processing

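The counts of genes with HSF1, MYC and overlapping peaks stayed within 1.5 times their values under all alternatives tried, at 6 to 8, 8 to 10 and 6 to 8 genes. Over these alternatives the shares of protein-coding genes ranged from 2.54% to 21.06% for HSF1, 32.9% to 64.1% for MYC and 1.05% to 16.8% for overlapping peaks. Leaving out 1 replicate gave 7 to 8, 10 and 7 to 8 genes. For MYC, 46.2% of protein-coding genes were called without replicate 1 and 63.3% without replicate 2, against 45.4% with both. Without HSF1 replicate 1 the shares were 12.3% for HSF1 and 7.14% for overlapping peaks. HSPA13 was added for HSF1 by the union of the replicates, where the shares of protein-coding genes were 21.06% for HSF1 and 16.8% for overlapping peaks, or by replicate 1 alone, where they were 16.5% and 9.15%, against 7.81% and 3.64%. HSPA4 was lost at p thresholds of 1e-10 for HSF1 and 1e-20 for MYC, with 6 genes against 2.83% of protein-coding genes, and HSPA14 was then lost for MYC together with HSPA4. HSPA2 was lost for MYC when the window was set on the gene's 5′ end. The count with a heat shock element at an HSF1 peak moved from 1 to 2 when the whole peak was searched, to 4 with 1 mismatch near the summit and to 7 with both, the last chosen after seeing the data. Among all 2141 reproducible HSF1 peaks, the shares in these wider searches were 25.2%, 25.1% and 55.1%, against 10.0% in the main search. The count with CACGTG at a MYC peak moved from 0 to 2 over the whole peak and to 2 with CANNTG, and leaving out 1 replicate gave 0 to 1, where HSPA8 was added without MYC replicate 1. Of all 11756 reproducible MYC peaks, 30.4% held CACGTG in the whole peak and 8.25% near the summit. The share with CANNTG over all MYC peaks was not counted. The cause of these changes in the counts was not tested beyond the wider search itself. The window on the MANE Select start was also chosen after seeing the data. No paired analysis was possible because the lists hold called peaks and no counts for every library, so no result comes from a test. The mean MYC fold at HSPA1A and HSPA1L was 6.83 for the peak nearest the start, against 8.78 for the highest. The HSF1 calls at HSPA4 and HSPA13 rest on 10 and 15 fragments at the summit in replicate 1, the deeper library with 10042269 fragments against 8721440, and HSPA4 had 23 in replicate 2. The part of depth was not tested.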

Other observations

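Partners of HSP70 showed HSF1 and MYC peaks as well. Of 18 genes for J-domain proteins, nucleotide exchange factors and other cochaperones, HSF1 peaks were called in both replicates at 10: BAG2, BAG3, BAG5, DNAJA1, DNAJB1, DNAJB2, DNAJB4, DNAJB6, ST13 and STIP1. MYC peaks were called at 16, and overlapping HSF1 and MYC peaks at 7. The shares over protein-coding genes were 7.81%, 45.4% and 3.64%. Windows reached 351834 bp at SIL1 and 87059 bp at DNAJB6, against a median of 32471 bp over protein-coding genes. ST13, the HSP70-interacting protein HIP, had HSF1 folds of 70.6 and 77.6, higher than any HSP70 or HSP110 gene in both lists. DNAJB6, a J-domain protein that holds back aggregation, had 37.1 and 59.7, and DNAJB1, the main J-domain partner of inducible HSP70, had 25.1 and 31.4. STIP1, the adaptor between HSP70 and HSP90 also called HOP, had HSF1 folds of 20.2 and 36.04 and pileups of 161 and 187 fragments. DNAJA1 had 15.9 and 28.4 and BAG2 had 18.4 and 22.4. The ST13 peaks also hold the start of XPNPEP3 and the DNAJA1 peaks that of APTX, so they cannot be assigned to one of the genes. The highest peaks of STIP1 and DNAJB4 hold the starts of the unnamed genes ENSG00000289486 and ENSG00000273338, and the BAG2 peak of replicate 2 that of ZNF451-AS1. BAG3, DNAJB2, DNAJB4 and BAG5 stood lower, with folds of 6.25 and 13.0, 5.29 and 9.74, 6.15 and 7.35, and 7.26 and 5.21. BAG5 was the single gene of these 10 that was lower in replicate 2, and it was not called within 1 kb of its MANE Select start.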
